A study of Mus musculus with 5 samples.

Results

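The CD3 chains and a set of pan-T surface proteins were followed by 7 genes, Cd3d, Cd3e, Cd3g, Cd247, Thy1, Cd7 and Cd2, out of 8251 genes named on the array. All probe sets annotated to these genes were taken, 9 in all, and 7 of them, 1 for each gene, passed the filter on low signal. The genes were grouped by the function of their proteins, but with the results of both comparisons known, among them the large 72 h signal of Cd7. Their levels and differences are therefore given as a description, with no test of their own.

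RNA came from CD8 T cells of OT-1 T cell receptor transgenic C57BL/6 mice aged 6 to 8 weeks. Cells low in CD44 were enriched from lymph nodes by removing other cells, and they were cultured on latex microspheres coated with an H-2Kb and peptide complex, the antigen of the transgenic receptor, and with B7-1, the ligand of CD28. All cultures also received human recombinant IL-2. The groups were antigen and B7-1 with murine IL-21 at 72 h (1 array), the same stimulus with IL-21 at 48 h (2 arrays), and antigen with B7-1 but no added IL-21 at 48 h (2 arrays). Samples are labelled biological replicates, and nothing says whether their cultures or mice were separate, so the spread between them may be technical. No culture kept to 72 h without IL-21 was analysed here, and time and IL-21 cannot be told apart at 72 h. The cells share 1 transgenic receptor, and whether mice were pooled is not stated.

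The T cell receptor reaches the cell surface only when its antigen-binding chains are assembled with the CD3 gamma, delta and epsilon chains and with the zeta chain, the product of Cd247. Gamma and delta each pair with an epsilon chain, and the zeta chains join as a dimer late in assembly. The cytoplasmic tails of all of them carry tyrosine motifs that the kinase LCK phosphorylates and to which the kinase ZAP-70 then binds. THY1 (a glycosylphosphatidylinositol-anchored glycoprotein), CD2 (an adhesion receptor, whose mouse ligand is CD48) and CD7 (a single-pass immunoglobulin superfamily protein) are surface proteins by which T cells are commonly recognised.

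Cd3g, Cd3d and Cd3e are neighbours on chromosome 9, and Cd247 lies on chromosome 1. Cd3g and Cd3d are read in opposite directions from starts 1355 bases apart, and the start of Cd3e is 27825 bases from that of Cd3d. The promoter sequences of these 4 genes are shown because the 4 chains of 1 complex differed in how their signals stood at 72 h. Each runs 5′ to 3′ on the gene's own strand, from 250 bases before the start to 50 bases after it, as given by RefSeq for GRCm38.p6. They lie at chr9:44980382-44980681 (minus strand, Cd3g), chr9:44981536-44981835 (plus strand, Cd3d), chr9:45009562-45009861 (minus strand, Cd3e) and chr1:165788431-165788730 (plus strand, Cd247). Capitals mark matches on either strand to the letters given after the sequences.

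Cd3g: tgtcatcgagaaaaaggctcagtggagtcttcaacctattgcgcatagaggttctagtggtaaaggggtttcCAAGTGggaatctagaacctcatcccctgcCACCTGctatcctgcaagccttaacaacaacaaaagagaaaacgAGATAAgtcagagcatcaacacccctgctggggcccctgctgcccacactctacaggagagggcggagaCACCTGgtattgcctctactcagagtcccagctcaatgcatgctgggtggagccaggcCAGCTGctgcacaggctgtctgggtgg

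Cd3d: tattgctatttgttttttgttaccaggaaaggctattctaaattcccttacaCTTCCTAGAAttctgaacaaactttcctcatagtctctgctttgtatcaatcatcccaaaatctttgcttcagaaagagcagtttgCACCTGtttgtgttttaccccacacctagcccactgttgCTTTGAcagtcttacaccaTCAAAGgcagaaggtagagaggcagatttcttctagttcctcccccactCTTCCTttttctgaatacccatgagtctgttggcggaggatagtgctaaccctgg

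Cd3e: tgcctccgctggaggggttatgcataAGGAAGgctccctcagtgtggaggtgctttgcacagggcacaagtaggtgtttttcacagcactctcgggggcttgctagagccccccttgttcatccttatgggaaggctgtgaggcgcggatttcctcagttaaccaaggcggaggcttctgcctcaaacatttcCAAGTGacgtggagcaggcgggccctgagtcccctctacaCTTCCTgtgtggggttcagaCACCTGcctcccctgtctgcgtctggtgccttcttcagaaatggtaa

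Cd247: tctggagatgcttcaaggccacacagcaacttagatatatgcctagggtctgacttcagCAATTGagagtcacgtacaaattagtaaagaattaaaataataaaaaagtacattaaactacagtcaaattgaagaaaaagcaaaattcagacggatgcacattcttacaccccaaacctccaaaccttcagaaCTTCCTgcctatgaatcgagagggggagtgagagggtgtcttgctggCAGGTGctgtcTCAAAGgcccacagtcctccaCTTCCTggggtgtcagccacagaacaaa

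The letters searched were AGGAAG, a core bound by ETS proteins, CANNTG, the E-box of E proteins, AGATAA for GATA proteins, CTTTGA for TCF and LEF proteins, TTCNNNGAA for STAT proteins, TGTGGT for RUNX proteins and the TATA box TATAAA. Among the 32851 promoters of the same length, 35.4% held AGGAAG and 72.3% held CANNTG. The promoters of Cd3d, Cd3e and Cd247 held 2 AGGAAG matches each and that of Cd3g held 0. CANNTG matched 4 times in Cd3g, 1 time in Cd3d, and 2 times each in Cd3e and Cd247. AGATAA, found in 11.2% of promoters, matched only in Cd3g, 1 time. CTTTGA, found in 16% of promoters, matched 2 times in Cd3d and 1 time in Cd247. TTCNNNGAA, found in 8.3%, matched only in Cd3d, 1 time, where it overlaps an AGGAAG match read on the other strand. No match to TGTGGT (in 16.8% of promoters) or TATAAA (in 13.6%) was found in the 4 windows. A match is a description of the letters, and binding was not measured.

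Values below are normalised signals, made by quantile normalisation of log2(signal + 1.53) over the 5 arrays and turned back to the linear scale, so that they include the offset and stand relative to the bulk of probe sets. A signal belongs to its own probe set, and levels are compared between arrays and not between genes. Before normalisation the arrays differed in overall signal, with trimmed means of 65.9 at 72 h, 105 and 106 at 48 h with IL-21, and 75.4 and 65.3 at 48 h without it. In bulk RNA, a change in the number of cells of a type and a change in the RNA per cell cannot be told apart.

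The 72 h array with IL-21 carried more Cd3g and Cd3d signal than any 48 h array, slightly more Cd3e signal, and less Cd247 signal. Cd3g, the gamma chain, had 1359.8 signal units at 72 h, against 400.4 and 393 at 48 h with IL-21. Without IL-21 at 48 h it had 471 and 429. The 72 h array was 3.43-fold above the 48 h arrays with IL-21 (log2 difference 1.78, SE 0.15), while the 4 arrays at 48 h lay within 0.26 of each other on the log2 scale.

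Cd3d, the delta chain, was close to Cd3g in its pattern. Its main probe set had 1135.3 signal units at 72 h, 418 and 445 at 48 h with IL-21, and 415 and 438 at 48 h without it. This put the 72 h array 2.63-fold above the 48 h arrays with IL-21 (log2 difference 1.40, SE 0.15), and the 48 h groups overlapped. The other Cd3d probe set, marked by its suffix as one for which the rules of probe choice were relaxed, was near the bottom of the scale on all arrays, between 1.61 and 3.94 signal units, and did not pass the filter.

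Cd3e, the epsilon chain that pairs with both gamma and delta, moved less. It had 1650.0 signal units at 72 h, 1092 and 1179 at 48 h with IL-21, and 1267 and 1445 at 48 h without it. Of the 5 arrays that of 72 h was the highest, 1.45-fold above the 48 h arrays with IL-21 (log2 difference 0.54, SE 0.14), but only 0.19 on the log2 scale above the higher of the arrays without IL-21. In the deposited, unscaled signals the order did not hold, since Cd3e had 1454 units at 72 h, and 1381 and 1580 at 48 h with IL-21.

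Cd247, the zeta chain, differed in the other direction under this normalisation. Its probe set past the filter had 64.3 signal units at 72 h, 87.6 and 74.6 at 48 h with IL-21, and 92.7 and 84.5 at 48 h without it. The log2 difference from the 48 h arrays with IL-21 was -0.33 (SE 0.24). The 72 h array lay below all 4 arrays of 48 h, at -0.215 from the lowest, a step smaller than the spread of 0.31 among those 4 arrays. A second Cd247 probe set had 12.6 units at 72 h, 6.53 and 11.2 at 48 h with IL-21, and 3.30 and 4.25 at 48 h without it. That set did not pass the filter, whose threshold was a mean of 13.0 units, and at such low signals MAS5 values are unreliable. Its order was opposite to that of the brighter set both between the 48 h groups and at 72 h (log2 difference 0.555). It is given as a value only.

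**Figure D1:**
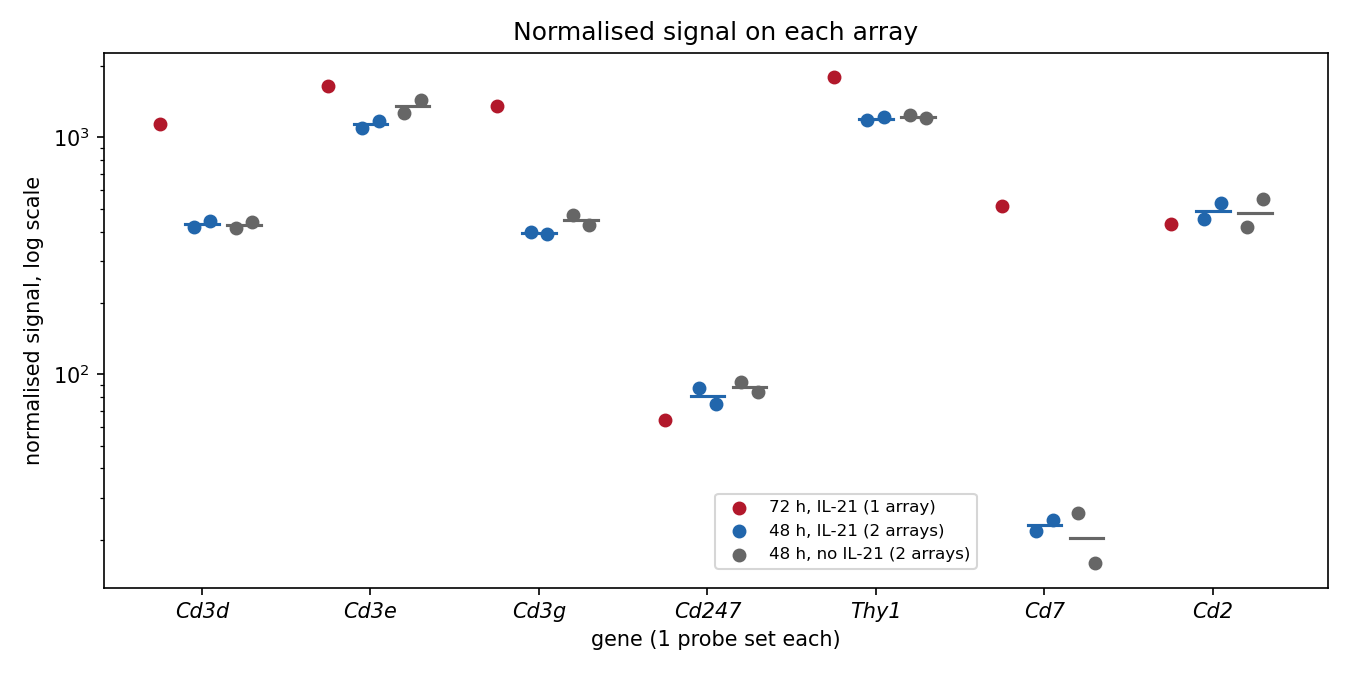
Normalised signal (log axis) of the 7 probe sets past the filter on each of the 5 arrays, with 72 h and IL-21 in red, 48 h and IL-21 in blue, and 48 h without IL-21 in grey; points are single arrays and bars the means of log2 values, and heights are not comparable between genes. Cd7 stands at 516 at 72 h, against 15.9 to 26.0 on the 48 h arrays, and Cd3g and Cd3d stand above all 48 h arrays, while Cd2 lies among them.

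The chains were also set against each other within each array, on deposited signals. There a factor common to all genes of an array drops out, but an array difference that varies with signal strength does not. The ratio of Cd3g to Cd247 was 4.23-fold higher at 72 h than at 48 h with IL-21 (2.08 on the log2 scale), while the 4 arrays at 48 h lay between -0.19 and 0.19 of the mean with IL-21. The ratio of Cd3d to Cd247 was higher by 1.61, with 48 h arrays between -0.30 and 0.26. These 2 ratios share Cd247, so they are not independent.

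Within the 3 neighbouring genes the ratios differed as well. Cd3g against Cd3e was 2.27-fold higher at 72 h (1.18 on the log2 scale, 48 h arrays between -0.22 and 0.13), and Cd3d against Cd3e was 1.64-fold higher (0.71, 48 h arrays between -0.32 and 0.00). Cd3g against Cd3d was higher by 0.47, against 48 h arrays that reached 0.33, so that this step was little larger than the spread. At 48 h the 6 ratios differed between cultures with IL-21 and without it by values between -0.21 and 0.26. The ratios show unequal change among the chains and do not say which chain stayed constant.

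**Figure D2:**
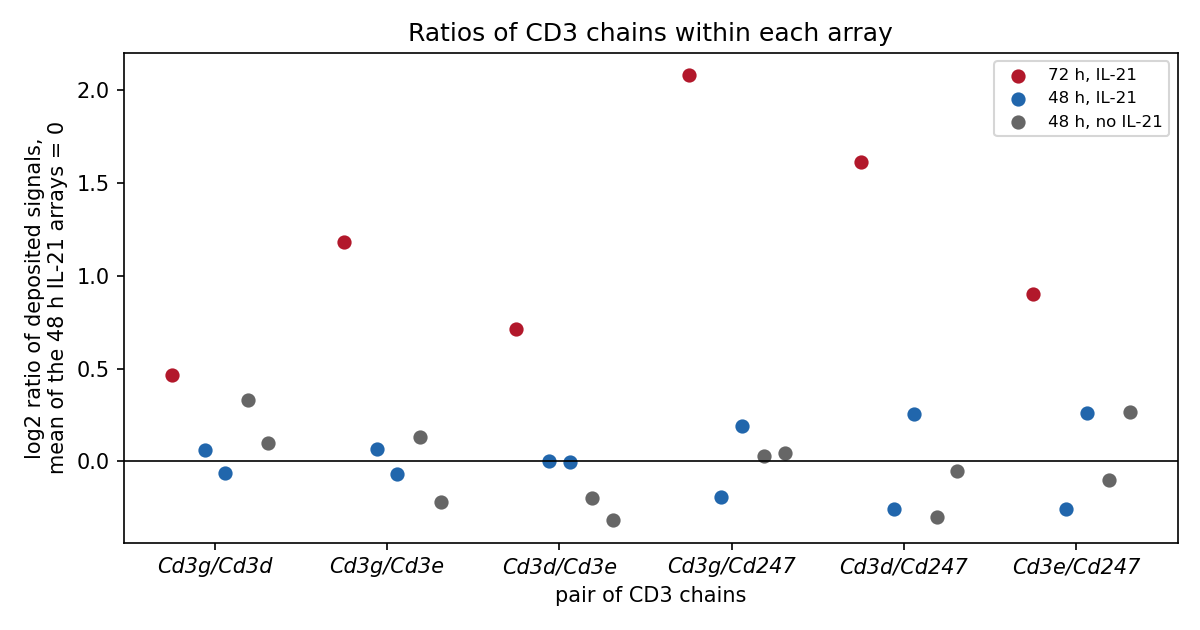
Log2 ratios of deposited signals between pairs of CD3 chains within each array, with the mean of the 48 h arrays with IL-21 set at 0; each point is 1 array, red for 72 h with IL-21, blue for 48 h with IL-21 and grey for 48 h without it. The 72 h array stands above all 4 arrays of 48 h in each of the 6 pairs, from 0.47 for Cd3g over Cd3d to 2.08 for Cd3g over Cd247. Each pair is written with the chain of the larger 72 h difference first, so the common upward direction follows from that order. The pairs share chains and are not independent.

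Cd7 had the largest difference of the 7 genes. It had 516 signal units at 72 h, against 21.8 and 24.3 at 48 h with IL-21 and 26.0 and 15.9 at 48 h without it. At 72 h the signal was 22.4-fold above that of the 48 h arrays with IL-21 (log2 difference 4.48, SE 0.37), and between 4.31 and 5.02 on the log2 scale above each single 48 h array. In deposited units Cd7 was 411 at 72 h, 27.9 and 25.7 at 48 h with IL-21, and 22.2 and 10.9 at 48 h without it. The 48 h signals were low, and detection calls were not used here, so the size of the fold is uncertain. With an offset of 32 units in place of 1.53 the log2 difference was 3.35.

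Thy1 was steady at 48 h and higher at 72 h after normalisation. It had 1795 signal units at 72 h, 1185 and 1218 at 48 h with IL-21, and 1243 and 1206 at 48 h without it. The 72 h array was 1.49-fold above the 48 h arrays with IL-21 (log2 difference 0.58, SE 0.12), against a spread of 0.07 among all 4 arrays of 48 h. In deposited units the 72 h array, at 1631, lay between the 48 h arrays with IL-21, at 1520 and 1641. The 48 h arrays without IL-21 had 1121 and 964, so in deposited units Thy1 was not steady at 48 h.

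Cd2 did not stand apart on any array after normalisation. It had 429.7 signal units at 72 h, 450.4 and 529 at 48 h with IL-21, and 420.4 and 551 at 48 h without it. The log2 difference at 72 h was -0.18 (SE 0.22), and the 72 h value lay within the range of the 4 arrays at 48 h. In deposited units it was below all of them, with 339 at 72 h, 570.2 and 702 at 48 h with IL-21, and 383 and 448 at 48 h without it, and its difference of -0.90 was called in limma on those unscaled values.

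**Figure D3:**
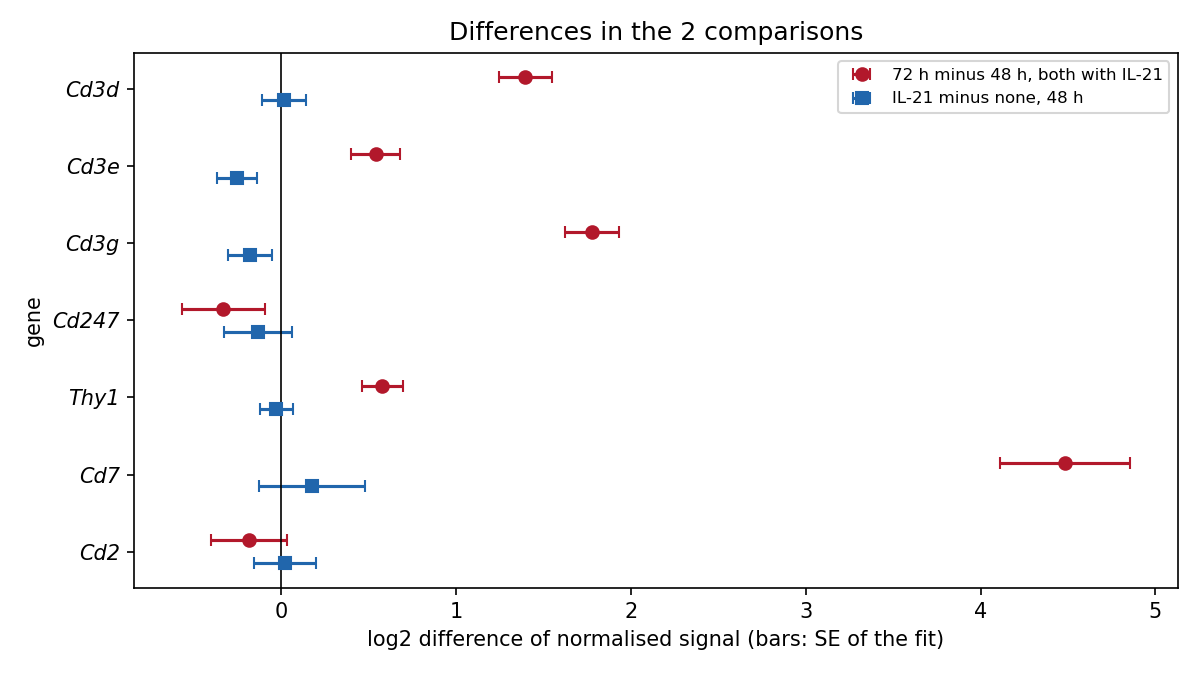
Log2 differences of normalised signal for the 7 genes, 72 h minus 48 h with IL-21 (red circles) and IL-21 minus none at 48 h (blue squares); bars are the standard errors of the fit. The 72 h differences run from -0.33 for Cd247 to 4.48 for Cd7, and those of IL-21 at 48 h lie between -0.25 and 0.18.

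The comparison of 72 h with 48 h set 1 array against 2, with the lone array assumed to vary like the 48 h groups. In limma, fitted to all 7453 probe sets past the filter, 11.2% were called with an adjusted p below 0.05, namely 4.04% higher and 7.12% lower. Of the 7 member probe sets, 4 were called higher (Cd3d, Cd3g, Thy1 and Cd7) and 0 lower. Nothing is read from that count, since the genes were chosen with this contrast known. When either of the 48 h arrays with IL-21 was left out, 0 of the 7453 probe sets were called in limma, with 1703 and 1748 at an unadjusted p under 0.05. By position alone, 5 of the 7 lay above all 4 arrays of 48 h and 1 below them, where 30.4% and 33.8% of all probe sets did. Differences of at least 2-fold upward were seen in 3 of the 7 (Cd3d, Cd3g and Cd7), against 7.1% of all probe sets. The median log2 difference of the 7 was 0.58, and that of all probe sets was -0.01.

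**Figure D4:**
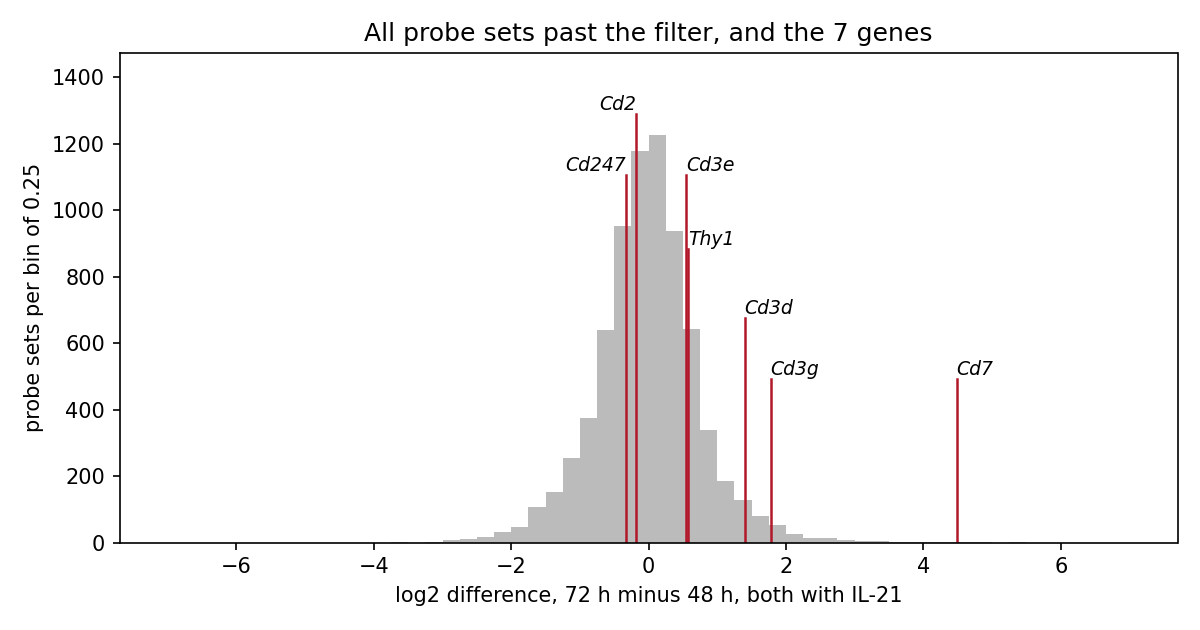
Distribution of the log2 difference, 72 h minus 48 h with IL-21, over the 7453 probe sets past the filter (grey bars, number of probe sets per bin), with red lines at the 7 genes, whose heights serve only to separate the names. Cd7 lies above 99.9% of probe sets, Cd3g above 98.3% and Cd3d above 96.4%, while Cd247 and Cd2 lie left of 0 under this normalisation and at 0.00 and 0.01 on the control scale.

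The sign of the smaller differences depended on the scaling between arrays. The median of all probe sets moved to -0.58 in the deposited values, to -0.17 with arrays centred on their medians and to 0.33 after scaling on 9 probe sets of bacterial and phage hybridisation controls. In the deposited values Cd3e differed by -0.02 and Thy1 by 0.05, and on the control scale Cd247 differed by 0.00 and Cd2 by 0.01. Measured from the median over the probe sets under the same setting, Cd3e lay between 0.51 and 0.66 and Thy1 between 0.58 and 0.66 over all 14 alternatives and the reported setting. Cd247 lay between -0.39 and -0.22, Cd3d between 1.27 and 1.49, Cd3g between 1.71 and 1.82, and Cd7 between 3.36 and 4.55. Cd2 lay between -0.32 and 0.01.

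**Figure D5:**
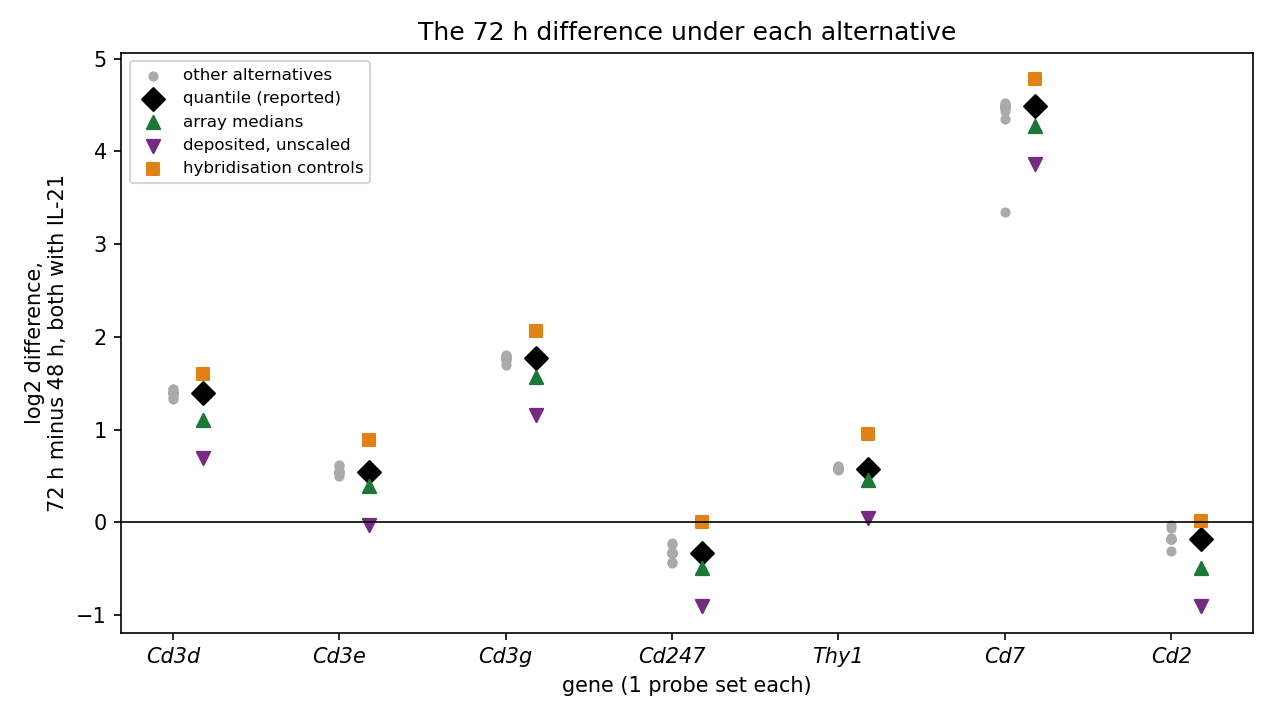
Log2 difference, 72 h minus 48 h with IL-21, of the 7 genes under the reported quantile normalisation (black diamonds), 3 other scalings (coloured) and the other alternatives (grey points). Cd3d, Cd3g and Cd7 stay above 0 in every alternative shown, with lowest values of 0.69, 1.16 and 3.35, and Cd3e and Thy1 reach -0.02 and 0.05 in the deposited values.

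After quantile normalisation, cultures with IL-21 and without it differed little in these genes at 48 h. In limma 0.0% of the 7453 probe sets were called at 48 h, and 327 had an unadjusted p under 0.05, of which 0 belonged to the 7 genes. Cd3e was lower with IL-21 than without it on both arrays (log2 difference -0.25, SE 0.11), and so was Cd3g (-0.18, SE 0.12), but in the deposited values, whose overall median moved to 0.57, both turned, to 0.36 and 0.41. The groups did not overlap for these 2 of the 7 probe sets, both lower with IL-21, where 33.8% of all probe sets did not overlap and 17.9% were lower with IL-21 without overlap. Within the same replicate number the difference of Cd3e was -0.21 and -0.29, and that of Cd3g was -0.24 and -0.12.

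After quantile normalisation the other 5 genes overlapped between the 48 h groups. Their log2 differences were 0.02 for Cd3d (SE 0.12), -0.13 for Cd247 (SE 0.20), -0.03 for Thy1 (SE 0.10), 0.18 for Cd7 (SE 0.30) and 0.02 for Cd2 (SE 0.18). In the deposited values the overlap did not hold, and all 5 were higher with IL-21, from 0.44 for Cd247 to 0.71 for Cd7. The median of all probe sets there was 0.57. On the control scale all 7 genes were lower with IL-21, between -0.64 for Cd3e and -0.29 for Cd7, where the median of all probe sets was -0.43. In the reported setting the median of the 7 was -0.03, and that of all probe sets was -0.01. Measured from that median under each setting, Cd3e lay between -0.34 and -0.14 and Cd3g between -0.23 and -0.10 over the 14 alternatives and the reported setting, while Cd7 had either sign, between -0.16 and 0.54. Cd8a and Cd8b1, the chains of the CD8 coreceptor, differed at 48 h by 0.82 (SE 0.12, adjusted p = 0.585 in limma) and 0.54 (SE 0.23, adjusted p = 0.967), and at 72 h by -0.51 (SE 0.15, adjusted p = 0.088) and 0.12 (SE 0.28, adjusted p = 0.828).

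The genes whose profile over the 5 arrays was most like that of a member were found by the root mean square difference of mean-centred log2 values, over 5609 other named genes past the filter, for the 3 members that spanned at least 1 log2 unit. For Cd3d they were Trafd1 (0.05), Smim14 (0.06) and Slc2a3 (0.06), the last a glucose transporter. For Cd3g they were Adgre5 (0.07), which encodes the adhesion receptor CD97, Pdcd4 (0.08), an inhibitor of translation, and Gtf2i (0.11), a transcription factor. Cd3d was 16th in likeness to Cd3g at 0.16, and Cd3g was 57th in likeness to Cd3d. For Cd7 they were Pglyrp1 (0.61), a peptidoglycan recognition protein, Mxd4 (0.64), a MAX-binding protein, and Nsg2 (0.65). These 3 had 177, 195 and 81.6 signal units at 72 h. At 48 h they had 17.1, 13.6 and 12.4 with IL-21, and 18.9, 18.2 and 7.52 without it. Nsg2 was below the filter threshold of 13.0 units in both 48 h groups, so it passed only through its 72 h signal. The likeness rests mainly on the single 72 h array. No profile was as near to that of Cd7 as those found for the other 2 members, but the measure is not scaled to a gene's span. That span was 5.02 log2 units for Cd7, 1.45 for Cd3d and 1.79 for Cd3g, so the distances cannot be compared between members.

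Other genes of the receptor pathway and the T cell surface were read from 5 fixed lists, in which 70 genes passed the filter. At 72 h 7 of them rose and 1 fell in limma over all probe sets, and at 48 h 0 were called. Over all probe sets 4.04% were called higher and 7.12% lower at 72 h, and the lists' counts are to be set against these shares, to which those of receptor signalling and GPI anchor synthesis were close. None of these 8 calls held when either 48 h array with IL-21 was left out. Of 22 genes of proximal receptor signalling, 1 rose and 0 fell, with a median log2 difference of 0.33. Rhoh, a GTPase needed for ZAP-70 recruitment, had 352 units at 72 h and 119 at 48 h with IL-21 (1.56, SE 0.25, adjusted p = 0.0187 in limma). Txk, a TEC family kinase (1.81, SE 0.45, adjusted p = 0.0562), and Dgka, a diacylglycerol kinase (0.94, SE 0.24, adjusted p = 0.0565), did not pass.

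Of 20 other T cell surface proteins, 3 rose and 0 fell at 72 h, with a median of 0.45. They were Cd37, a tetraspanin (254 units at 72 h, 81.6 at 48 h with IL-21, log2 difference 1.64, adjusted p = 0.0176 in limma), Selplg, the selectin ligand PSGL-1 (2320.0 and 1221, 0.93, adjusted p = 0.0234), and the GPI-anchored Cd52 (1730.1 and 1203, 0.53, adjusted p = 0.0496). Of 8 ligands and adapters of CD2 and CD7, 0 passed in either direction, with a median of 0.50. Cd48, the ligand of CD2, had 617 units at 72 h and 411 at 48 h with IL-21 (0.59, SE 0.19, adjusted p = 0.107), and Lgals1, which encodes galectin-1, a binding partner of CD7 known from human cells, had 3941 and 1892 (1.06, SE 0.32, adjusted p = 0.0941).

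Of 10 T lineage transcription factors, 3 rose and 0 fell at 72 h, with a median of 0.65. They were Ets1 (169 units at 72 h, 72.6 at 48 h with IL-21, log2 difference 1.22, adjusted p = 0.0287 in limma), Lef1 (999.8 and 516, 0.95, adjusted p = 0.0321) and Myb (405 and 172, 1.24, adjusted p = 0.0356). Of 12 genes of GPI anchor synthesis, the pathway that attaches THY1 to the membrane, 0 rose and 1 fell, Pigu, a transamidase subunit (-0.97, SE 0.23, adjusted p = 0.0488), with a median of -0.07. The antigen-binding chains of the receptor were found under none of the 12 symbols looked for. At 48 h, adjusted p of the genes with the smallest p in each of the 5 lists lay between 0.967 and 0.993 in limma.

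The labelled cell type was checked on its defining markers, and Cd8a and Cd8b1 had signals between 401 and 1093 on all 5 arrays. Cd4 had 32.6 units at 72 h, 15.9 and 9.39 at 48 h with IL-21, and 15.6 and 12.8 at 48 h without it. Natural killer cells also carry CD7, CD2 and the zeta chain. Of 6 NK cell markers on the array 0 passed the filter, and their summed signal was 49.6 at 72 h, 47.5 and 60.1 at 48 h with IL-21, and 47.8 and 44.8 at 48 h without it. The summed signal of 9 B cell markers, of which 5 passed the filter, was 999 at 72 h, 688 and 506 at 48 h with IL-21, and 680 and 409.5 at 48 h without it, of which Ighm made up 868 at 72 h. Of the others, Cd79b had 33.6 units at 72 h and 20.0 at 48 h with IL-21, Pax5 had 38.0 and 35.6, and Ms4a1 had 17.7 and 20.6. The median log2 difference of the 5 past the filter was 0.09. Cr2, Cd22, Blnk and Fcer2a were below the filter. That of 16 myeloid and dendritic cell markers, 10 past the filter, was 479.7 at 72 h, 469 and 339 at 48 h with IL-21, and 527 and 407 at 48 h without it. The median log2 difference of the 10 was -0.23. Lyz2, Itgam, Fcgr3, Fcer1g, H2-Aa and Adgre1 were below the filter. Cd68 had 55.4 units at 72 h and 24.1 at 48 h with IL-21, and Itgax had 41.3 and 16.7. Among the class II genes, H2-Eb1 had 14.1 units at 72 h and 24.1 at 48 h with IL-21, and H2-Ab1 rose at 72 h (140 units, against 59.1 at 48 h with IL-21, log2 difference 1.24, adjusted p = 0.0256 in limma). The 5 CD4 T cell markers on the array summed to 83.7 at 72 h, 50.9 and 48.1 at 48 h with IL-21, and 69.4 and 54.1 at 48 h without it, and the 6 erythroid, platelet and stromal markers to 339, 316 and 233, and 316 and 291 in the same order. The part of the higher Ighm, Cd79b, H2-Ab1, Cd68, Itgax and Cd4 signals at 72 h in these results was not tested.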

How the data were processed

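The deposited values are probe set intensities, summarised by the authors with MAS5 per the submitters' processing notes, and no version, scaling target or detection calls are given in the sources used here. Columns differed in overall signal. Probe sets (12422 without controls) were named from platform annotation updated through Entrez identifiers to GRCm38.p6 symbols. Log2(signal + 1.53), the offset being the 10th percentile of all values, was quantile-normalised, and probe sets with a mean above the 40th percentile were kept. Differences were fitted with limma 3.58.1 in R 4.3.3 on 3 group means over all 5 arrays (2 residual degrees of freedom), with a variance trend, two-sided tests and Benjamini-Hochberg adjustment at 0.05 over 7453 probe sets. The fit was tested on simulated data with independent values and, for each probe set, the same spread on all 5 arrays. Such data cannot check the spread assumed for the lone 72 h array. Other genes were represented by their brightest probe set, and up to 3 per list and comparison were named by smallest p. Members and lists were chosen with earlier results of these data known. The number of arrays limits the precision. Scalings, offsets, filters, the variance trend, the replicate number, the samples in the fit and single arrays were varied.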

Additional observations from a re-analysis of the deposited data

How the results depend on the processing

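In the 14 alternatives the 72 h differences of Cd3d, Cd3g, Thy1 and Cd7, the members called in the reported setting, did not change sign. Those of Cd2, between -0.90 and 0.01, and of Cd3e, between -0.02 and 0.89, had either sign. At 48 h, 696 probe sets were called in limma in the deposited values (696 higher, 0 lower), among them 1 member, Thy1, and 44 (2 higher, 42 lower) after scaling on hybridisation controls. At 72 h, 2128 were called in the deposited values (101 higher, 2027 lower), with Cd2 called lower and Thy1 no longer called, against 832 (301 higher, 531 lower) as reported, and 905 (667 higher, 238 lower) on hybridisation controls. Arrays centred on their medians gave 674 (122 higher, 552 lower) and 2 members called, Cd3g and Cd7. Without a variance trend 0 probe sets and 0 members were called at 72 h, with 1843 at an unadjusted p under 0.05, and with only the groups compared 399 were. Leaving out 1 array of 48 h gave 0 to 465 probe sets and 0 to 3 members called at 72 h. With IL-21 arrays left out both counts were 0, and with IL-21-free arrays left out Thy1 was not called. Over all alternatives Thy1 was called at 72 h in 5 of 14. The filter at the 60th percentile removed Cd7. The causes of these changes were not tested. With the replicate number as a block 11 probe sets were called at 48 h, none of them a member, and 1860 at 72 h, with 5 members, Cd3e added. Replicate 2 minus replicate 1 correlated at 0.361 between the 48 h groups over 7453 probe sets, but no label ties the numbers to a mouse, day or batch.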
